A study of Mus musculus with 11 samples.

Results

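Ribosomes are assembled in the nucleolus, where RNA polymerase I transcribes the long precursor of ribosomal RNA. Small nucleolar ribonucleoproteins (snoRNPs) modify that precursor, box C/D particles by methylation and box H/ACA particles by pseudouridylation, and large sets of assembly factors cleave it, fold it and load ribosomal proteins onto it. In skin the demand for this work is known to follow the dividing keratinocytes of the basal layer and the hair bulb, and an enlarged nucleolus is a classical feature of tumour cells. The genes described here were the 47 of 20352 measured genes whose annotated symbol began with Utp, Nop, Nol, Rrp, Imp or Noc followed by a digit or with Polr1, together with Fbl, Ncl, Npm1, Dkc1, Bop1, Pes1, Wdr12 and Nolc1. Utp11 is annotated under its older symbol Utp11l. The naming rule itself used no measured value, but the genes were chosen with earlier results of these data known. For grouping, 44 of the 47 were assigned a part in making ribosomes or in the nucleolar scaffold. The other 3 (Nol3, Nol4 and Nol7) came in by symbol and were kept in a group of their own. This grouping does not show that they lack such a part.

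The samples were 5 keratoacanthomas, squamous tumours built of keratinocytes, and 6 normal skins, each hybridised to a mouse whole-transcript array. All keratoacanthomas came from K14-Cre;Zmiz1 double transgenic mice. Of the normal skins, 2 came from the same double transgenic genotype (normal skin 1 and 2), 2 from K14-Cre transgenic mice (3 and 4) and 2 from Zmiz1 transgenic mice (5 and 6). In K14-Cre mice the promoter of keratin 14, a basal keratin, drives Cre recombinase in keratinocytes; Zmiz1 encodes a transcriptional co-activator related to the PIAS family. Every normal skin therefore carried at least 1 transgene, no wild-type skin was among the samples, and the labels gave neither ages nor the number of animals sampled. The p-values therefore measure only the spread between these pieces, which may be technical. Levels are log2 intensities per gene, the median over the gene's probesets, each probeset being a small set of probes to 1 stretch of the transcript; a difference of 1 is a 2-fold change. Zmiz1 itself stood at 8.15 ± 0.11 in keratoacanthoma (SD, n = 5) and 7.5 ± 0.30 in normal skin (n = 6), a difference of 0.65 (limma adjusted p = 0.0045).

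Ribosome assembly genes were broadly higher in keratoacanthoma. Of the 47 genes, 36 rose, 0 fell and 11 did not pass the test (limma, Benjamini-Hochberg adjusted p below 0.05 over all genes), where 14.5% of all 20352 genes rose and 10.8% fell. At an unadjusted p below 0.05 the count of lower genes was 0 as well. The median difference over the 47 genes was 0.63 on the log2 scale, against -0.04 over all genes, and 43 of the 47 differences were above 0. Rises were moderate: 8 genes rose at least 2-fold, and the largest, of Nop16, was 2.83-fold. In 31 of the 47 genes every keratoacanthoma lay above every normal skin and in 0 genes below, where 9.66% of all genes were separated upward and 6.31% downward. Centring each array on its median changed the split over all genes, with 3485 higher and 1677 lower in place of 2959 and 2200, and gave 36 of these genes higher and 0 lower.

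**Figure D1:**
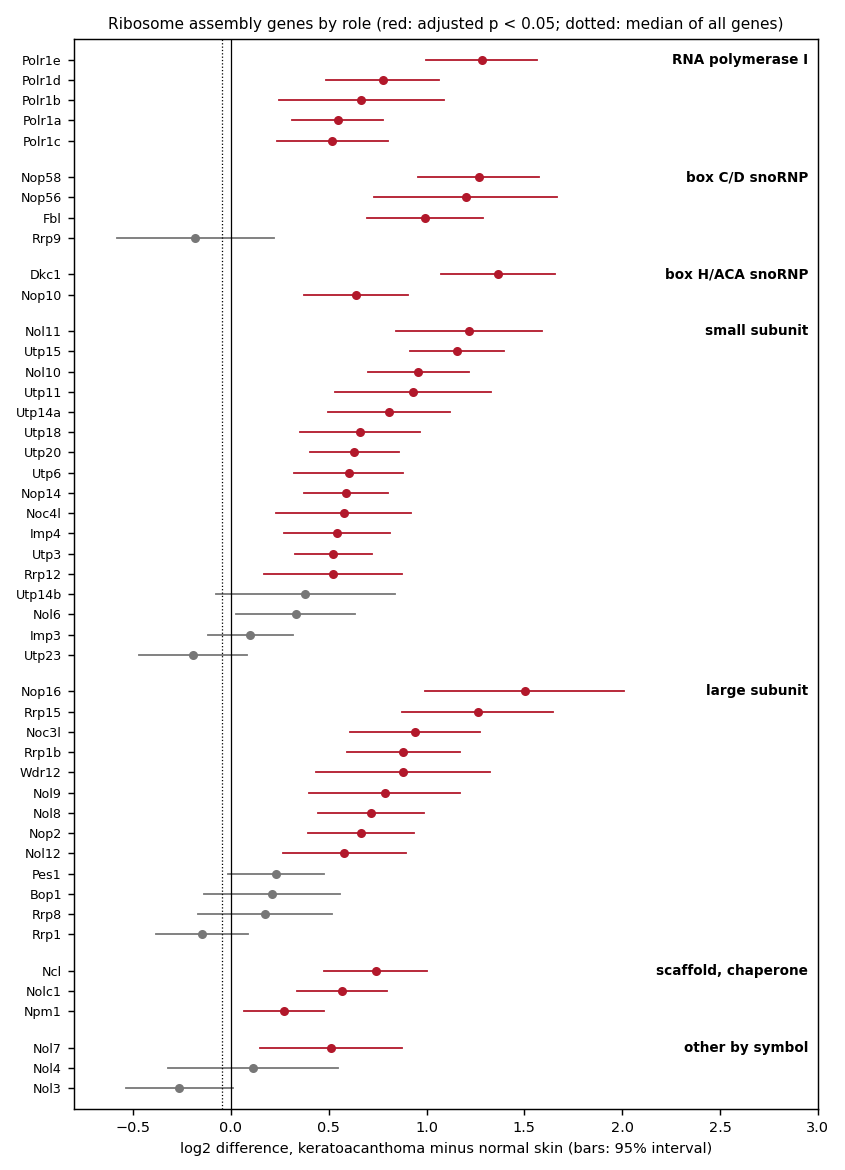
Difference in log2 level between keratoacanthoma (n = 5) and normal skin (n = 6) for each of the 47 genes, grouped by role, with 95% intervals from limma. Red points passed at an adjusted p below 0.05; 36 genes lie to the right and pass, and no gene on the left does, while the dotted line marks the median of all genes at -0.04.

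Averaged over the 47 genes, the log2 level was 7.71, 7.75, 7.78, 7.72 and 7.79 in keratoacanthoma 1 to 5, and 7.32, 6.98, 7.2, 7.05, 7.06 and 7.04 in normal skin 1 to 6. The keratoacanthomas were close to each other, while among normal skins numbers 1 and 3 stood above the other 4. The median SD of a gene was 0.15 across keratoacanthomas and 0.25 across normal skins. It was smaller in the tumours for 38 of the 47 genes (80.9%), and over all genes this held for 70.3%. Normal skin 1 gave the highest normal level for 19 of the 47 genes, and normal skin 2 the lowest for 17, although both came from double transgenic mice.

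**Figure D2:**
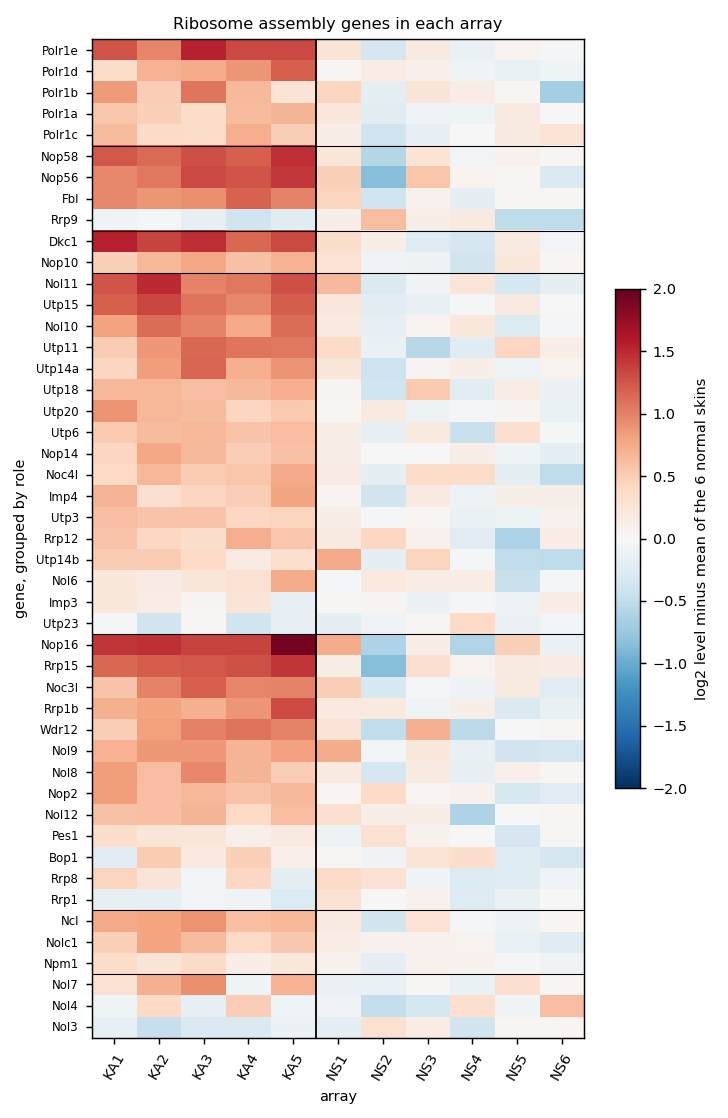
Log2 level of each ribosome assembly gene (rows, grouped by role in the order RNA polymerase I, box C/D, box H/ACA, small subunit, large subunit, scaffold, other) in each array (columns, keratoacanthoma KA1 to KA5, normal skin NS1 to NS6), minus the mean of the 6 normal skins. Most rows are red across the 5 keratoacanthomas, and rows such as Rrp9, Utp23, Rrp1 and Nol3 are not; NS2 is blue for Nop56, Nop16 and Rrp15.

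Other cell types moved with the comparison. The mean log2 level of 20 skeletal muscle genes, all of them lower past the threshold, ranged from 5.58 to 6.9 in keratoacanthomas and from 9.89 to 11.2 in normal skins, with normal skin 2 the highest. Fat cell genes were lower in 9 of 10 (mean 5.84 to 6.85 in keratoacanthomas, against 7.54 to 8.69 in normal skins) and fibroblast genes in 5 of 10 (mean 6.98 to 8.07 in keratoacanthomas, against 8.16 to 9.0 in normal skins). Neutrophil genes were higher in 6 of 10 and lower in 1 (mean 6.58 to 7.64 in keratoacanthomas, against 5.07 to 5.72 in normal skins), macrophage genes lower in 2 of 10 (mean 6.13 to 7.15 in keratoacanthomas, against 7.0 to 8.01 in normal skins), and of 7 T cell genes 1 was higher and 1 lower (mean 5.82 to 6.29 in keratoacanthomas, against 5.87 to 6.6 in normal skins). The labelled tissue carried its defining genes in both groups: 12 keratinocyte genes averaged 10.17 to 10.31 in keratoacanthomas and 9.58 to 10.01 in normal skins, with 4 higher and 2 lower. The part of these cell types in the rise of ribosome assembly genes was not tested, and in such whole tissue a larger share of cells that make ribosomes cannot be told apart from more of each RNA per cell.

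Cell division and the hair follicle were the other quantities that set the normal skins apart. The mean level of 19 mitosis genes, all of them higher past the threshold, was 7.41 to 7.59 in the keratoacanthomas, 6.99 and 6.57 in normal skin 1 and 3, and 5.58 to 5.84 in the other 4. Against normal skin of the tumour's own genotype, 10 of the 19 were higher and 0 lower (median 1.15). Hair follicle genes, 18 in number with 1 lower and 0 higher, averaged 8.3 in keratoacanthoma 4 and 5.9 to 6.18 in the other keratoacanthomas, against 9.35 and 9.0 in normal skin 1 and 3 and 5.89 to 5.96 in the rest. Normal skin 1 and 3 were thus the normal pieces with the highest hair follicle, mitosis and ribosome assembly levels alike. Without these 2 pieces, 36 of the 47 genes were higher and 0 lower, with a median of 0.69. Leaving out the normal pieces with the highest average of these genes widens the average difference by construction. With the hair follicle mean as a covariate 35 were higher and 0 lower, with a median of 0.63. Without keratoacanthoma 4, the tumour with high hair follicle genes, 35 were higher and 0 lower. The part of the hair follicle or of cell division in the rise of ribosome assembly genes was not tested.

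**Figure D3:**
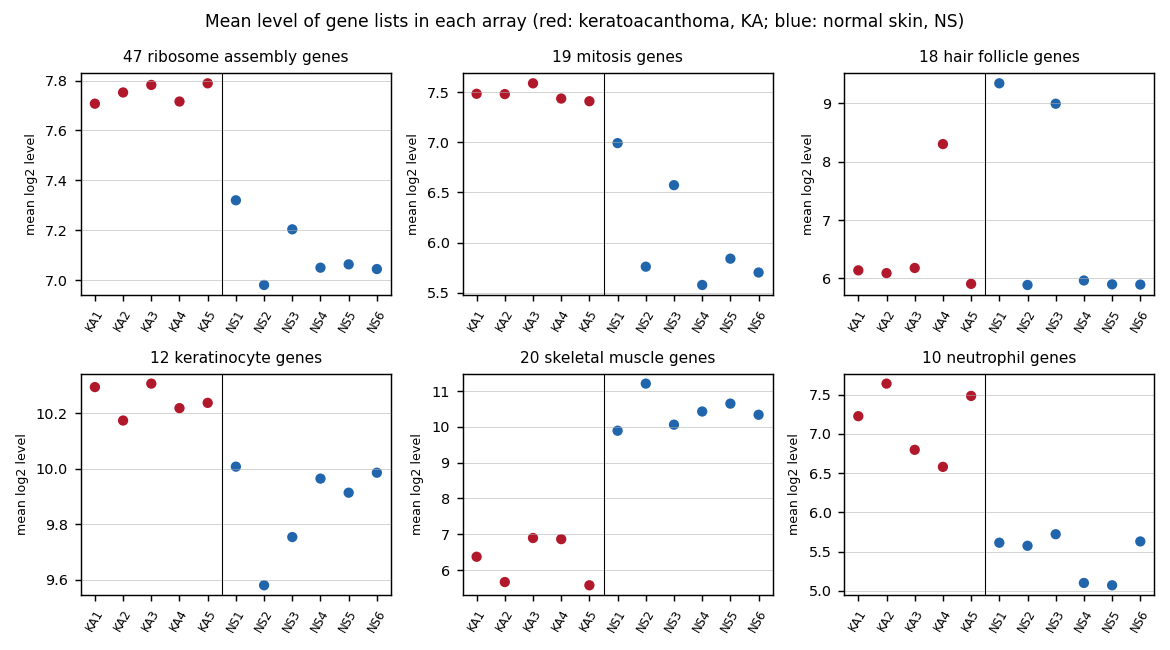
Mean log2 level (vertical axes, each panel on its own scale that does not start at 0) of the 47 ribosome assembly genes and of 5 marker lists in each array, keratoacanthoma KA1 to KA5 in red and normal skin NS1 to NS6 in blue. Ribosome assembly and mitosis genes share the raised positions of NS1 and NS3, which also hold the high hair follicle values, and muscle genes lie at 9.89 or above in every normal skin.

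For a view of the sequence at such genes, promoters were read from RefSeq (GRCm38.p6), 250 bases before the start of transcription, for the 37 ribosome assembly genes with an entry; Bop1, Fbl, Nol3, Nol4, Nol6, Npm1, Rrp12, Utp11, Utp23 and Utp6 were not used here. The letters CACGTG, the E-box bound by MYC with its partner MAX, stood in 5 of 37 windows (13.5%) and in 1108 of 15761 windows of all measured genes (7.03%). The sequence reads the same on both strands, and a window could hold several of the motifs searched. Among the genes that rose, 4 of 31 held it, and among those that did not pass, 1 of 6. The ETS letters CCGGAAGT, searched on both strands, stood in 3 of 37 (8.11%, against 4.07% of all windows), the letters of an NRF1 site, GCGC followed by 2 free bases and a further GCGC, in 5 of 37 (13.5% against 7.57%), and CCAAT, bound by NF-Y, in 10 of 37 (27.0% against 35.7%). These are matches of letters, with no measure of binding in the data.
The 3 windows below belong to the genes with the smallest p among those that hold CACGTG, which is in capitals; each runs 5′ to 3′ on the gene's own strand and ends at the base before the start. Nol11, a small subunit factor, lies on chr11:107189382-107189631 (minus strand) with the motif starting 43 bases before the start; Nop2, a large subunit methyltransferase, on chr6:125131633-125131882 (plus strand, 60 bases before); and Utp18, a small subunit factor, on chr11:93885767-93886016 (minus strand, 20 bases before).
Nol11: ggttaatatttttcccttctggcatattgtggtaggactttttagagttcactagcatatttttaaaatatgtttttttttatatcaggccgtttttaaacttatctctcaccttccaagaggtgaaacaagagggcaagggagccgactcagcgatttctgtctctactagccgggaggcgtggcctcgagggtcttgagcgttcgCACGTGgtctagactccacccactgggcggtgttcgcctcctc
Nop2: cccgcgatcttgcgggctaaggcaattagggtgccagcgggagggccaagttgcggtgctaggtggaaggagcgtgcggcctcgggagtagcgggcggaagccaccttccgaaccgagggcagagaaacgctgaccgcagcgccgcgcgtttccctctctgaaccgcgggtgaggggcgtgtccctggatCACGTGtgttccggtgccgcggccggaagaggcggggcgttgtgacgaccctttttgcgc
Utp18: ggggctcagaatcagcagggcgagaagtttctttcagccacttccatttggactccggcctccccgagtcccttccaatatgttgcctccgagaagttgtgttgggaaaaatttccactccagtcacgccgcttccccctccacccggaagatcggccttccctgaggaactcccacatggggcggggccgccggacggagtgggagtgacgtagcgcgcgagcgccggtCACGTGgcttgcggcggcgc

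RNA polymerase I comes first in the pathway, and the 5 subunits with a Polr1 symbol rose (median 0.67); subunits under other symbols were counted in a separate list with the factors of this polymerase, where 4 of 13 rose. Polr1e, the subunit that with its partner forms the dimer helping initiation and elongation, stood at 6.64, 6.36, 6.93, 6.7 and 6.71 in the 5 keratoacanthomas, against a lowest, median and highest level of 5.05, 5.4 and 5.64 in the 6 normal skins. The groups lay far apart, with a difference of 1.28 (SE 0.13, 2.43-fold, limma adjusted p = 2.4e-05); with the mean over its 15 probesets in place of the median it was 0.83 (adjusted p = 0.00036). Polr1d, an assembly platform subunit shared with RNA polymerase III, reached 8.33, 8.65, 8.7, 8.84 and 9.16 in keratoacanthomas, against 7.84, 7.94 and 8.11 (lowest, median, highest) in normal skins, a difference of 0.78 (SE 0.13, adjusted p = 0.001) with keratoacanthoma 1 the nearest to the normal range. Its platform partner Polr1c, likewise shared, differed by 0.52 (SE 0.13, adjusted p = 0.011). After quantile normalization the difference was 0.51 for Polr1d (adjusted p = 0.014) and 0.28 for Polr1c (0.13), which was then not called. The catalytic core subunits rose as well. Polr1a, the largest subunit, averaged 6.79 ± 0.13 in keratoacanthoma and 6.24 ± 0.17 in normal skin (SD, n = 5 and 6; adjusted p = 0.0025). Polr1b, the second largest, averaged 6.59 ± 0.31 in keratoacanthoma and 5.92 ± 0.39 in normal skin (adjusted p = 0.023), where keratoacanthoma 5 at 6.2 lay below normal skin 1 at 6.35. The call for Polr1b ended without keratoacanthoma 1 or 3.

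Box C/D snoRNP proteins rose in 3 of the 4 among the 47 genes (median 1.1). The core scaffold Nop58 stood at 9.11, 9.01, 9.15, 9.07 and 9.33 in keratoacanthomas, against 7.3, 7.93 and 8.14 (lowest, median, highest) in normal skins, and its paralog Nop56 at 8.96, 9.06, 9.32, 9.26 and 9.42 in keratoacanthomas, against 7.15, 8.06 and 8.55 in normal skins. No tumour overlapped a normal skin for either, and the differences were 1.27 (SE 0.14, adjusted p = 5.2e-05) and 1.2 (SE 0.22, adjusted p = 0.0014). Fibrillarin (Fbl), the methyltransferase of the particle, had 10.31, 10.24, 10.28, 10.54 and 10.34 in keratoacanthomas, against 8.95, 9.37 and 9.8 in normal skins, 1.99-fold higher (difference 0.99, adjusted p = 0.00022). That size rests on the median probeset: 3 of its 5 probesets were above 0, the probeset at the median level had the highest difference of the 5, and with the mean over probesets the difference was 0.33 (adjusted p = 0.015). Rrp9, a protein of the snoRNP that starts processing of the small subunit, did not pass, with 6.37, 6.42, 6.28, 6.05 and 6.21 in keratoacanthomas, against 5.94, 6.56 and 7.06 in normal skins and a difference of -0.18 (95% interval -0.58 to 0.22, adjusted p = 0.52). Its normal skins divided by genotype: both Zmiz1 transgenic pieces stood at 5.94, below all keratoacanthomas, and the other 4 at 6.56 to 7.06, above them all.

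The box H/ACA particle turns uridine into pseudouridine, and both of its proteins among the 47 genes, Dkc1 and Nop10, rose. Dyskerin (Dkc1), its catalytic subunit and also a part of telomerase, stood at 8.16, 7.96, 8.09, 7.77 and 7.93 in keratoacanthomas, against 6.28, 6.65 and 6.96 (lowest, median, highest) in normal skins. The lowest tumour was 7.77 and the highest normal skin 6.96, and the difference of 1.37 (SE 0.13, 2.58-fold) had an adjusted p of 1.7e-05. Nop10, a small subunit of the same particle, averaged 10.65 ± 0.11 in keratoacanthoma and 10.01 ± 0.24 in normal skin (SD, n = 5 and 6), a difference of 0.64 (adjusted p = 0.002).

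**Figure D4:**
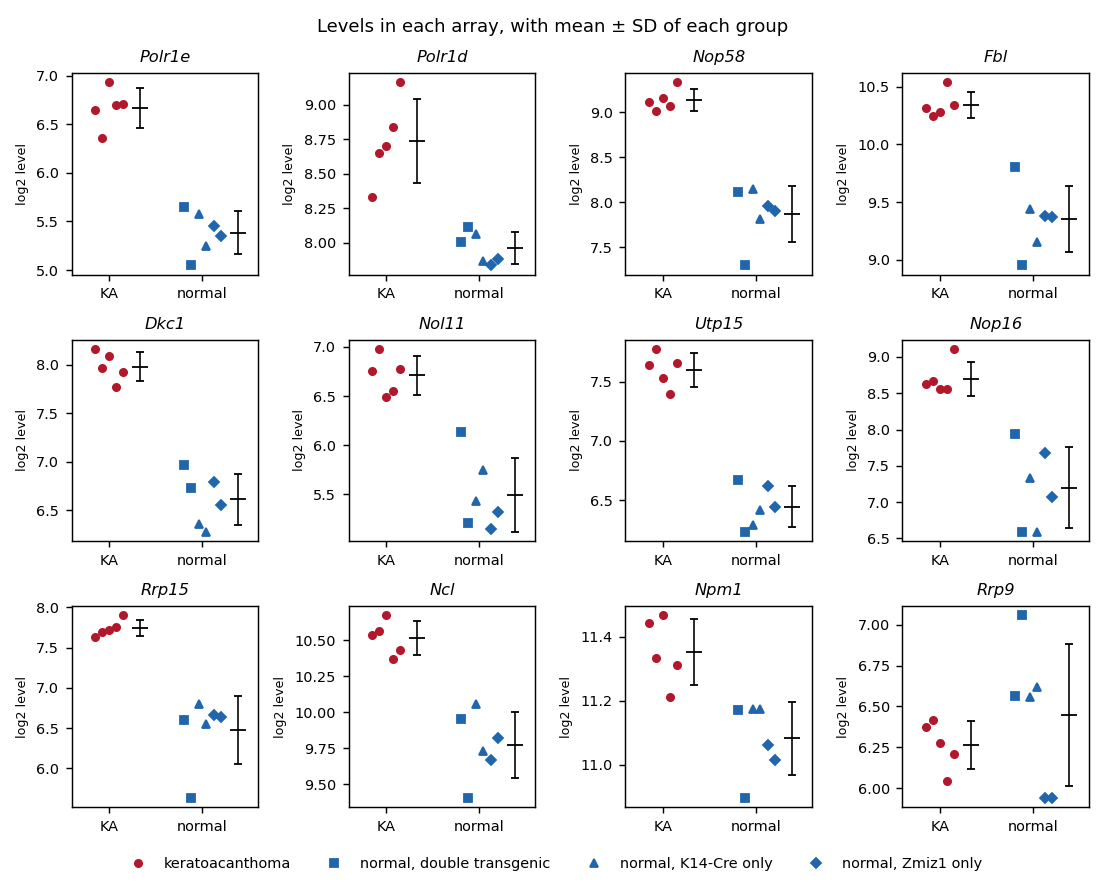
Log2 level of 12 ribosome assembly genes in each array (points), keratoacanthomas on the left and normal skins on the right with a symbol for each genotype, and the mean ± SD of each group beside them; each panel has its own scale that does not start at 0. In all panels but Rrp9 the 5 keratoacanthomas lie above the 6 normal skins, and the Rrp9 panel shows the Zmiz1 transgenic skins below and the others above the tumours.

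The small subunit processome is the large particle that folds and cuts the first part of the precursor. Of 17 of its genes and late small subunit factors, 13 rose and 4 did not pass (median 0.59). Utp15, of the subcomplex that binds the precursor first, had the smallest p of all 47 genes and ranked 144 among all genes. Its levels were 7.64, 7.78, 7.53, 7.4 and 7.66 in keratoacanthomas, against 6.23, 6.43 and 6.67 (lowest, median, highest) in normal skins, a difference of 1.16 (SE 0.11, adjusted p = 1.4e-05). Nol11, which belongs to the same early subcomplex in vertebrates, stood at 6.76, 6.98, 6.49, 6.55 and 6.78 in keratoacanthomas, against 5.14, 5.37 and 6.14 in normal skins (2.32-fold, adjusted p = 0.00028), with normal skin 1 the highest of the normal pieces. For Nol10 and Utp11, further processome proteins, the differences were 0.96 (SE 0.12, adjusted p = 0.00011) and 0.93 (SE 0.18, adjusted p = 0.0025). Another 9 genes rose by 0.52 to 0.81: Utp14a, Utp18, Utp20, Utp6, Nop14, Noc4l, Imp4, Utp3 and Rrp12, the last no longer called without keratoacanthoma 1, 2, 4 or 5 or normal skin 4. After quantile normalization Nop14 was at 0.37 (adjusted p = 0.029) and Utp3 at 0.27 (0.062).

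Of the small subunit genes that did not pass, Imp3, read by 1 probeset, was the flattest, with 9.55 ± 0.16 in keratoacanthoma and 9.45 ± 0.10 in normal skin (SD, n = 5 and 6; difference 0.10, 95% interval -0.12 to 0.32). Utp23 differed by -0.19 (-0.47 to 0.08, adjusted p = 0.3), Nol6 by 0.33 (0.03 to 0.64, adjusted p = 0.11; called higher with the mean over probesets, 0.40, adjusted p = 0.0015) and Utp14b by 0.38 (-0.08 to 0.84, adjusted p = 0.22). Utp14b is a retrogene copy of Utp14a that lies within the Acsl3 locus, was read by 2 probesets and may share signal with Utp14a or Acsl3, so that its value is uncertain.

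Factors of the large subunit, which shape the part of the precursor that becomes the RNA of the large subunit, rose in 9 of 13 (median 0.72). By the median over probesets Nop16 had the largest rise of all 47 genes, while by the mean it was at 1.16 and Nop58 at 1.45. Nop16 stood at 8.63, 8.66, 8.55, 8.55 and 9.11 in keratoacanthomas, against 6.59, 7.2 and 7.94 (lowest, median, highest) in normal skins, and the difference of medians over probesets was 1.5 (SE 0.24, adjusted p = 0.00053). Rrp15 came next in this role with 7.63, 7.69, 7.72, 7.76 and 7.9 in keratoacanthomas, against 5.63, 6.62 and 6.8 in normal skins (2.4-fold, adjusted p = 0.00028), the lowest normal value being that of normal skin 2. Noc3l, a factor that joins early large subunit particles, differed by 0.94 (SE 0.15, adjusted p = 0.0007), and Rrp1b by 0.88 (SE 0.13, adjusted p = 0.00042). The rises of Wdr12, Nol9, Nol8, Nop2 and Nol12 ran from 0.58 for Nol12 to 0.88 for Wdr12, with Nol8 at 0.72, or 0.45 after quantile normalization.

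Wdr12, Bop1 and Pes1 form 1 complex, PeBoW, that is needed to cut the spacers beside the large subunit RNA. Wdr12 rose (adjusted p = 0.0069), with keratoacanthoma 1 at 7.53 alone below a normal skin, number 3 at 7.75. Pes1 and Bop1 did not pass: Pes1 differed by 0.23 (95% interval -0.01 to 0.47, adjusted p = 0.16) and Bop1 by 0.21 (-0.14 to 0.56, adjusted p = 0.38). With the mean over its 11 probesets, 5 of which were higher and 0 lower when tested singly, Pes1 was called higher (0.57, adjusted p = 0.00073), and Bop1 was not (0.24, 0.12). Wdr12 was at 0.99 (0.00013) with the mean and, without dim probesets, at 1.45, against 0.88 with the median over all. Whether the 3 differ from each other was not tested, and they were singled out after their values were seen. Rrp8, a methyltransferase, differed by 0.18 (-0.17 to 0.52). Rrp1, the paralog of Rrp1b, averaged 8.35 ± 0.09 in keratoacanthoma and 8.5 ± 0.19 in normal skin, a difference of -0.15 (-0.38 to 0.09, adjusted p = 0.36). Its call depended on the processing: with the mean over its 13 probesets it was higher (0.40, adjusted p = 0.02), and after a further quantile normalization lower (-0.41, adjusted p = 0.024).

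The abundant nucleolar scaffold and chaperone proteins rose in 3 of 3 (median 0.57). Nucleolin (Ncl), which binds nascent ribosomal RNA, had 10.53, 10.56, 10.67, 10.37 and 10.43 in keratoacanthomas, against 9.4, 9.77 and 10.06 (lowest, median, highest) in normal skins, a difference of 0.74 (SE 0.12, adjusted p = 0.00072), or 0.46 with the mean over probesets (adjusted p = 0.00054). Nolc1, a chaperone of snoRNPs that links nucleolus and Cajal bodies, differed by 0.57 (SE 0.11, adjusted p = 0.0017; 0.37 and 0.037 after quantile normalization). Nucleophosmin (Npm1), a histone and ribosome chaperone, stood at 11.44, 11.33, 11.47, 11.21 and 11.31 in keratoacanthomas, against 10.9, 11.12 and 11.17 in normal skins. Its groups did not overlap, yet the difference was 0.27 (SE 0.09, adjusted p = 0.049), and the call ended in 16 of 24 alternative fits, among them those without any 1 of the 6 normal skins or without keratoacanthoma 1, 2, 3 or 5. With the mean over probesets the difference was 0.61 (adjusted p = 0.00011), and all 6 probesets were above 0. Npm1 has processed pseudogenes, and 2 more probesets, which name Npm1 together with 2 such gene models, were left out of its level.

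Among the 3 genes that entered by symbol, Nol7, a nucleolar protein, rose by 0.51 (SE 0.17, adjusted p = 0.039) with overlapping groups, and its call ended in 13 of 24 alternative fits, among them those without keratoacanthoma 2, 3 or 5 or without normal skin 1, 2, 3, 4 or 6. Averaging the probesets gave Nol7 a difference of 0.16 (adjusted p = 0.13). Nol4 was dim, with 4.3 ± 0.31 in keratoacanthoma and 4.19 ± 0.41 in normal skin, both under the 25th percentile, which lay at 4.88 to 4.95 over the probesets of an array, and differed by 0.11 (-0.32 to 0.55). Nol3, better known as an inhibitor of apoptosis abundant in muscle, differed by -0.26 (-0.54 to 0.01, adjusted p = 0.15). Without these 3 genes, 35 of 44 rose and 0 fell.

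Gene levels drew on probesets that did not always move alike. The 47 genes were read by 673 probesets, 1 to 63 per gene, of which 578 had a difference above 0, where 101274 of all 211507 probesets did. Tested singly, 273 rose and 6 fell (limma, adjusted over all 211507 probesets), where 8.29% of all probesets were higher and 6.98% lower. In 18 genes every probeset was higher in mean, among them Nop58 with 16 of 16, Nol10 with 20 of 20, Noc3l with 23 of 23 and Utp15 with 15 of 15. Some genes that rose had few probesets that rose when tested singly, such as Nol7 with 1 of 8, Npm1 with 2 of 6, Fbl with 2 of 5 and Rrp12 with 5 of 34. In 44 of the 47 genes most probesets pointed upward. Neither this count nor that of 18 was taken over all genes. The 44 included Rrp1 and Rrp9, with 10 of 13 and 9 of 15 above 0, although the differences of their gene levels, as medians, were below 0. Of the 36 genes that rose, 5 moved by over 1.5 times in log2 difference with the mean over probesets (Fbl, Ncl, Nol7 and Polr1e down, Npm1 up), while the median over the 47 genes was 0.65. The 6 lower probesets belonged to Rrp12 (2), Nol3, Nolc1, Rrp8 and Rrp1.

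With only skin of the tumour's own genotype as the base, normal skin 1 and 2, fitted in a 4-group model, 30 of the 47 genes rose, 1 fell and 16 did not pass, where 10.6% of all genes rose and 6.93% fell. The 30 were all among the 36. The median was 0.59, against -0.05 over all genes. Dkc1 rose by 1.13 (adjusted p = 0.00089), Rrp15 by 1.63 (0.0011), Utp15 by 1.15 (0.0012), Nop58 by 1.43 (0.0015) and Polr1e by 1.32 (0.0017). The 6 no longer called were Npm1 (0.32, adjusted p = 0.11), Polr1b (0.55, 0.16), Nol7 (0.64, 0.087), Nol9 (0.45, 0.14), Nol12 (0.36, 0.2) and Rrp12 (0.22, 0.47). The gene that fell was Rrp9, by 0.54 on the log2 scale (adjusted p = 0.036), a call that ended with the mean over probesets, with centred arrays, in a fit of these 7 arrays alone, and without keratoacanthoma 3, 4 or 5 or normal skin 2, 5 or 6. Without normal skin 2, which leaves 1 normal piece of that genotype assumed to vary like the other groups, 5 genes rose, and without keratoacanthoma 2, 19 did. This comparison and the one with all normal skins share the 5 keratoacanthomas and 2 of the normal skins.

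In tumour-free skin, carrying both transgenes rather than 1 made no difference that passed. K14-Cre transgenic and Zmiz1 transgenic skin were not tested against each other. Between normal double transgenic and normal single transgenic skin (2 against 4), 0 of the 47 genes were called by limma, where 0.0147% of all genes were; 6 had an unadjusted p below 0.05, 5 of them higher and 1 lower in double transgenic skin, where 10.2% of all genes had such a p. The smallest adjusted p, 0.36, belonged to Rrp9, at 6.81 in double transgenic skin and 6.26 in single transgenic skin. Also below an unadjusted limma p of 0.05, Nol9 (0.51), Rrp8 (0.51), Dkc1 (0.35) and Nop2 (0.32) were higher in double transgenic skin. Rrp15 was lower there (-0.55). For Polr1e the levels were 5.35 in double and 5.41 in single transgenic skin, for Utp15 6.45 in double and 6.44 in single transgenic skin, and for Fbl 9.38 in double and 9.34 in single transgenic skin. A miss in so small a comparison does not show that the genotypes are alike, and without normal skin 1 the median over the 47 genes, 0.07 with all pieces, was -0.13, with 1 gene lower.

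Other genes of the ribosome pathway, from lists of named factors written with earlier results of these data known, were measured beside these. Among 46 other small subunit factors 32 rose and 0 fell (median 0.63), led by the processome proteins Wdr43 (1.37), Utp4 (1.33) and Mphosph10 (1.33). Of 50 other large subunit factors 33 rose and 0 fell (median 0.72). These were led by nucleostemin (Gnl3), a nucleolar GTPase of stem and tumour cells, at 9.33 ± 0.27 in keratoacanthoma and 7.78 ± 0.30 in normal skin (SD, n = 5 and 6; 1.55, adjusted p = 2.6e-05), the RNA helicase Ddx21 (1.48) and Nifk (1.33). Of 12 further snoRNP proteins and their assembly factors 8 rose (median 0.67). The box H/ACA proteins Nhp2 and Gar1, partners of Dkc1 and Nop10, rose by 1.85 (adjusted p = 6.1e-05) and 1.05 (1.3e-05), and the H/ACA assembly factor Naf1 by 1.1.

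Of 13 factors and shared subunits that serve RNA polymerase I, 4 rose and 0 fell (median 0.18); Rrn3, the factor that makes the polymerase competent to initiate, rose by 1.03 (adjusted p = 3.6e-05), Taf1d by 1.16 and the shared subunit Polr2h by 0.98. The RNA exosome, which trims precursors and degrades spacers, rose in 8 of 15 genes (median 0.54), led by its helicase Mtrex (0.89), the nuclease Dis3 (0.87) and Exosc6 (0.85). Without keratoacanthoma 3 this count was 5.

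Ribosomal proteins are what the pathway assembles. Of 63 measured genes of cytosolic ribosomal proteins, 32 rose and 0 fell, with a median of 0.33, the largest being Rps7 (1.47), Rpl19 (1.27) and Rpl12 (1.2); 21 rose without keratoacanthoma 5. These genes have many processed pseudogenes, 16 of 79 listed were not analysed here, and single values are uncertain where probes share signal. Proteins of the mitochondrial ribosome, made for a separate machine, rose in 16 of 75 and fell in 2 (median 0.17). Mrps22, Mrpl13 and Mrpl50 rose by 0.88, 0.80 and 0.71, while Mrpl53 and Mrps36 fell by 0.53 and 0.46. Whether the share of calls differs between these lists was not tested.

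**Figure D5:**
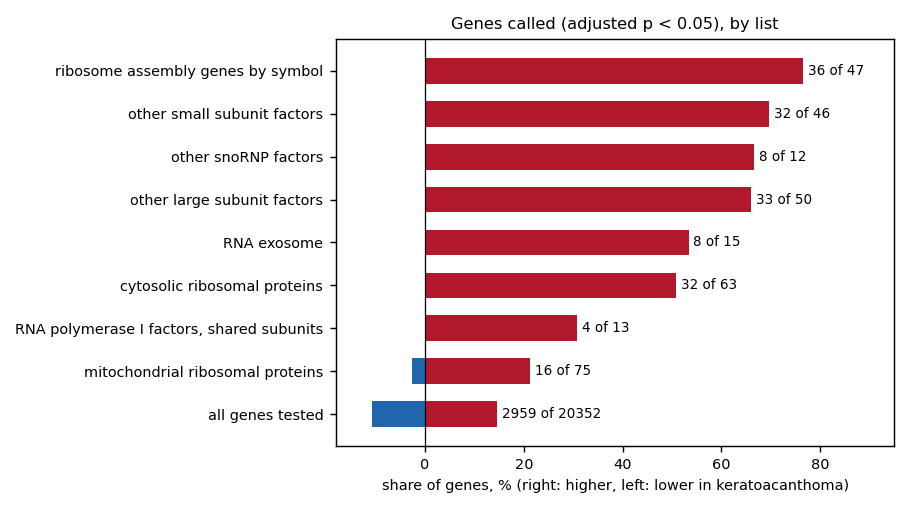
Share of genes of each list, in percent, that was higher (red, to the right) or lower (blue, to the left) in keratoacanthoma than in normal skin at a limma adjusted p below 0.05, with the count of higher genes beside each bar. The share is 76.6% for the 47 ribosome assembly genes, 21.3% for mitochondrial ribosomal proteins and 14.5% for all genes.

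Regulators that bear on the pathway were measured too. Myc, whose product is known to drive transcription of many nucleolar genes, averaged 8.88 ± 0.18 in keratoacanthoma and 8.26 ± 0.12 in normal skin (SD, n = 5 and 6), a rise of 0.62 (SE 0.11, adjusted p = 0.0011) with the groups apart, at 8.66 to 9.16 in keratoacanthomas and 8.09 to 8.38 in normal skins. Its partner Max rose by 0.37 and Mlx, of the related network, by 0.55; Mycn (0.19, adjusted p = 0.45) and Mycl (-0.30, adjusted p = 0.097) did not pass, and of the 11 genes of this list 3 rose and 0 fell. Free ribosomal proteins are known to stabilise p53 by holding MDM2. Of 5 measured genes of that link 3 rose, 0 fell and 2 did not pass, where 14.5% of all genes rose. Those that rose were Mdm2 by 0.91 (limma adjusted p = 0.00067), Cdkn1a by 0.82 (0.013) and Rpl11 by 0.93 (0.019). Whether this link was at work in the tumours was not tested.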

How the data were processed

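RNA of 5 keratoacanthomas and 6 normal skins was amplified, labelled and hybridised to single-colour mouse whole-transcript arrays, per the labels' protocols. The deposited values are log2 intensities per probeset; RMA, Partek and the mm9 build are named, without versions, in the submitters' processing notes, and other settings are not given in the sources used here. Array medians were 6.22 to 6.27, and the number of arrays limits the precision.

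Of 241576 probesets, 212097 named 1 gene, 4475 several and 25004 none in the platform annotation. After 590 probesets with values identical to another were dropped, 211507 gave 20416 symbols; 17621 were current in RefSeq, 2742 were updated and 53 kept, giving 20352 genes. A gene's level was the median over its probesets. Differences were tested with limma 3.58.1 in R 4.3.3 (lmFit, eBayes) with Benjamini-Hochberg adjustment over all genes: keratoacanthoma against normal skin in 2 groups, and 2 contrasts in a model of 4 groups. The fit was tested on simulated data. Single values outside the gene table were compared by an exact two-sided permutation test (462 arrangements, smallest p 0.0043).

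The genes and lists were chosen with earlier results of these data known. Within each role, up to 4 genes past the threshold with the largest rise and the gene nearest 0 were named, with every gene that fell and the 3 smallest p; from other lists, up to 3 rises and 2 falls. Other genes given with values were chosen after their values were seen. Sample numbers in the titles were not treated as pairs in the main fit. The correlation of deviations between tumour and skin of the same number was -0.18 to 0.10 over 5 numbers. This cannot show whether a tumour and a skin came from the same animal, which the labels do not say. Alternatives covered the gene level, filters, scaling, variance prior, array weights, replicate block, choice of normal skins, hair follicle genes and each array left out. Protein sequences were not used here.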

Additional observations from a re-analysis of the deposited data

Results flagged for a closer look

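In 6 of 94 groups of values (each of the 47 ribosome assembly genes in each group of samples), 1 sample lay far from the others of its group, by its gap to the nearest sample over the whole range of the group; chance alone gives about 1 in 20. Among keratoacanthomas, number 5 was high for Nop16 at 9.11, against 8.55 to 8.66 in the other 4 (gap over range 0.802), for Nol6 at 7.31, against 6.73 to 6.88 (0.746), and for Rrp1b at 7.17, against 6.59 to 6.75 (0.722). Among normal skins, number 2 was low for Rrp15 at 5.63, against 6.55 to 6.8 in the other 5 (0.784). Normal skin 4 was low for Nol12 at 6.8, against 7.43 to 7.74 (0.673), and high for Utp23 at 6.51, against 5.93 to 6.13 (0.664). Nop16, Rrp15 and Rrp1b passed the test in keratoacanthoma against normal skin in every one of 25 fits, those without these samples included.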

How the results depend on the processing

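For keratoacanthoma against normal skin, the count of higher ribosome assembly genes ran from 25 (normal double transgenic skin alone, 7 arrays) to 38 (mean over probesets, with Nol6, Pes1 and Rrp1 gained and Nol7 lost), from 33 to 35 with each array left out (medians 0.59 to 0.66), and 22 genes were higher in all 25 fits. The replicate block by title number, which pairs no known source, gave 33 higher and a median of 0.60. Quantile normalization gave 31 higher and 1 lower gene, Rrp1 (-0.41, adjusted p = 0.024, limma). Over all genes it gave 2408 higher and 1973 lower, in place of 2959 and 2200. With the mean over probesets Rrp1 was at 0.40 and Rrp9 at 0.20, and Rrp1 at 0.18 against same-genotype skin. Imp3 was at -0.18 after quantile normalization, Nol4 at -0.023 against single transgenic skin and -0.058 without dim probesets, and Rrp9 at 0.000874 against single transgenic skin. Against same-genotype skin the count of higher genes was 5 to 30 and of lower genes 0 to 1 with each array left out (5 without normal skin 2, 19 without keratoacanthoma 2), the median 0.46 to 0.76, and the count of lower genes 0 with 7 arrays in 2 groups, the mean over probesets or centred arrays. Between normal double and single transgenic skin, leaving out each array gave 0 to 1 lower genes, with a median of -0.13 without normal skin 1. With double transgenic skin alone, other small subunit factors had 21 higher, the exosome 3, cytosolic ribosomal proteins 21 and mitochondrial ones 5. Quantile normalization gave 4 for the exosome and 9 for mitochondrial ribosomal proteins, and the mean over probesets 25 for mitochondrial ribosomal proteins. With each array left out the exosome had 5 to 8 and cytosolic ribosomal proteins 21 to 31. The cause was not tested for any of these. For fits with other normal skins, another gene level or an array left out, the share of all genes called is not given here. A loss of calls particular to these genes can therefore not be told apart from a general one. Of the values of named genes, 36 against all normal skins (7 genes) and 46 against same-genotype skin (15 genes) kept their direction and lost the call.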

Other observations

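With symbols brought up to date before the naming rule was applied, 52 genes met it in place of 47. Among the 5 added, Utp4, a processome protein, stood at 8.23 ± 0.24 in keratoacanthoma (SD, n = 5) and 6.90 ± 0.16 in normal skin (n = 6), a difference of 1.33 with an adjusted p of 1.4e-05 by limma. Nop9, a small subunit factor, averaged 6.86 ± 0.28 in keratoacanthoma and 6.10 ± 0.29 in normal skin (limma adjusted p = 0.0045), and Utp25 7.15 ± 0.15 in keratoacanthoma and 6.61 ± 0.19 in normal skin (limma adjusted p = 0.0041). Nop53, a large subunit factor, had 9.79 ± 0.17 in keratoacanthoma and 9.91 ± 0.19 in normal skin and did not pass, nor did Nol4l, with 5.69 ± 0.28 in keratoacanthoma and 5.82 ± 0.22 in normal skin.

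Probesets that name several genes were kept out of all gene levels. The 2 that name Npm1 together with Gm9118 and Gm6477 averaged 11.5 ± 0.13 in keratoacanthoma and 11.2 ± 0.11 in normal skin, with no overlap (exact permutation p = 0.0043, the smallest 5 against 6 allow). The 12 that name Rrp7a and Serhl had 7.32 ± 0.19 in keratoacanthoma and 7.19 ± 0.13 in normal skin (exact permutation p = 0.19). The 2 that name Acsl3 and Utp14b had 6.75 ± 0.19 in keratoacanthoma and 6.85 ± 0.46 in normal skin (exact permutation p = 0.68).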
